A study of Homo sapiens with 6 samples.

Results

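The cholesterol genes described here are 30 of the 63140 genes in the deposited count table, and each was found there by its symbol in exactly 1 row. They comprise 20 enzymes that build cholesterol and its isoprenoid precursors, 6 genes that control the sterol-sensing transcription factor SREBP2, and 4 genes that move or store sterols. The list does not hold every enzyme of the route, and steps with no listed gene are not analysed here. All 30 passed the filter on low counts and were tested.

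The libraries came from HEK293 cells, an established human line from embryonic kidney, grown in serum-containing medium. Confluent cultures received either the solvent dimethyl sulfoxide (DMSO) or 100 nM GSK-A1, an inhibitor of the lipid kinase PI4KA, for 24 h, with 3 libraries labelled as biological replicates in each group. The groups share the cell line and carry no engineered allele, and the series holds 1 dose and 1 time. PI4KA makes phosphatidylinositol 4-phosphate at the plasma membrane. Of the markers set for the line, KRT8, KRT18, VIM and NEFL were at 109 CPM or above in every library, where CPM is the count of a gene scaled to a common library total. PAX2 was low, with means of 2.71 CPM under DMSO and 2.00 CPM under GSK-A1, and NEFM was at most 0.381 CPM in any library. Among these markers KRT8 and VIM were called higher and PAX2 lower. Of markers of other cell types, PTPRC, ALB and PECAM1 were at or under 0.176 CPM, DES was at or under 0.776 CPM, TYR had 0 counts and COL1A1 stood at 4.86 to 7.24 CPM.

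Cells make cholesterol from acetyl-CoA by way of mevalonate, farnesyl pyrophosphate, squalene and lanosterol. When sterols in the endoplasmic reticulum run low, SCAP carries SREBP2 to the Golgi, where the site-1 and site-2 proteases MBTPS1 and MBTPS2 release its active part, which turns on most genes of the route. When sterols are plentiful, INSIG1 and INSIG2 hold SCAP and SREBP2 in the endoplasmic reticulum. Phosphatidylinositol 4-phosphate is also known as the lipid that oxysterol-binding proteins exchange for sterol at membrane contacts.

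With GSK-A1, 13 of the 30 cholesterol genes fell, 2 rose and 15 did not pass the test (edgeR quasi-likelihood test, adjusted p under 0.05 over all 16754 genes tested). Over all genes tested, 10.9% were called lower, 12% were called higher and 22.9% were called in either direction. All 13 falls were in enzymes of synthesis, so that 13 of these 20 enzymes fell, 1 rose and 6 did not pass. Of the 10 genes of SREBP control, transport and storage, 0 fell and 1 rose. This split held for the main fit. When GSK-A1 replicate 2 was left out or a trend with GC content was removed, STARD4 and SOAT1 of these 10 were called lower. Upper-quartile library factors gave STARD4 and SREBF2 as lower, and a replicate block gave STARD4. The median log2 fold change was -0.19 over the 20 enzymes and 0.0082 over the other 10 genes, beside -0.011 over all genes tested. In 14 cholesterol genes all 3 GSK-A1 libraries lay below all 3 DMSO libraries, and in 2 they lay above, while over all genes tested these shares were 20.4% and 20.2%. The changes were small, between -0.47 and 0.34 on the log2 scale. Each library holds RNA of a whole culture, so a change in some of the cells and a change in every cell cannot be told apart. Counts are shares of a library, so they give changes relative to other genes and not absolute amounts.

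**Figure D1:**
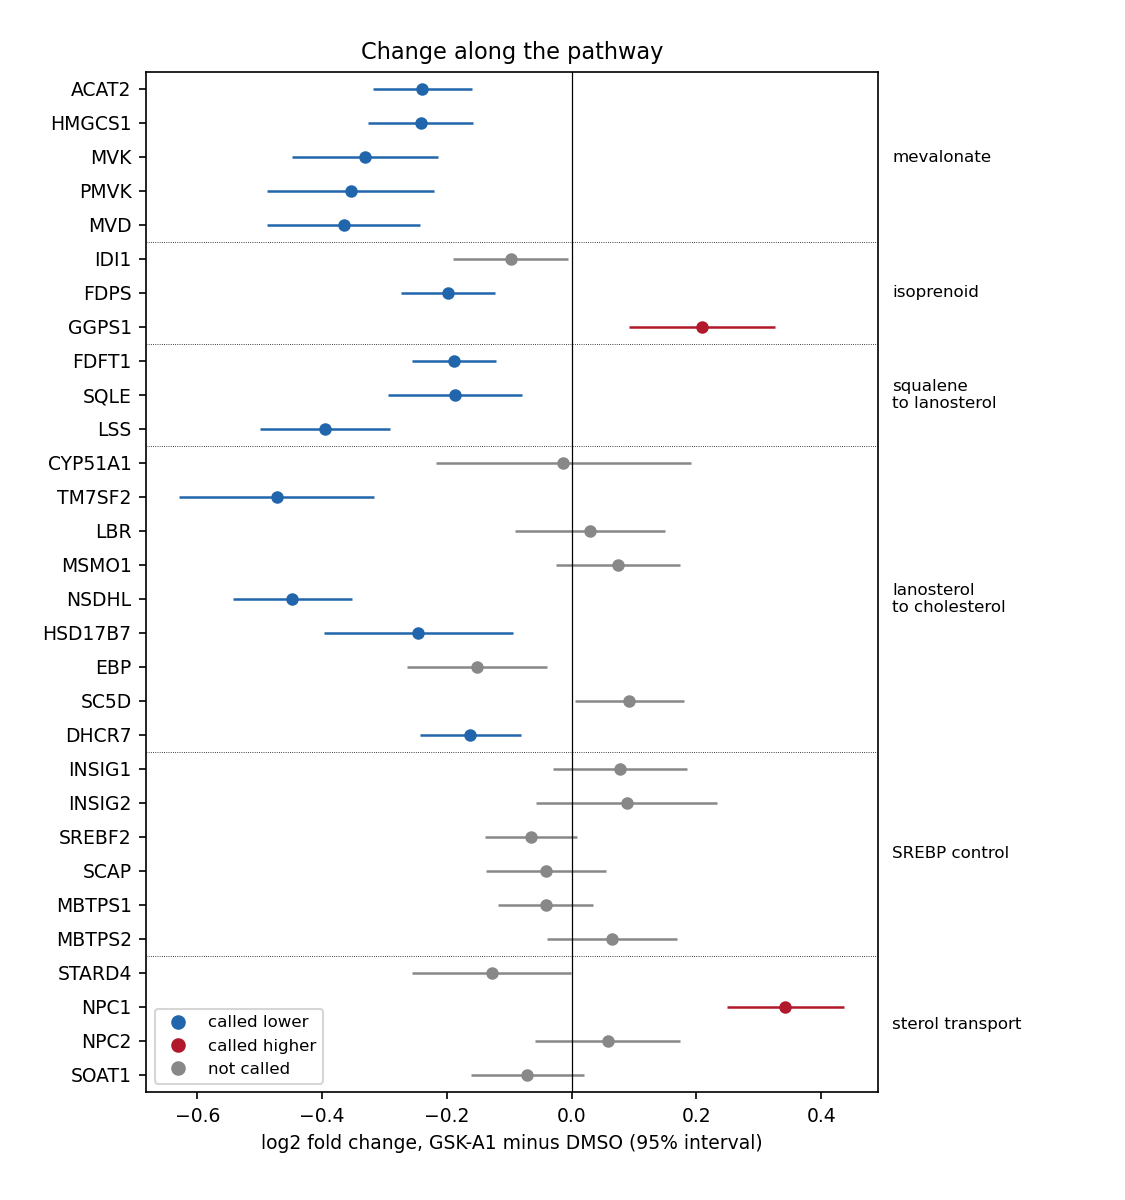
Log2 fold change (GSK-A1 minus DMSO, horizontal axis) of the 30 cholesterol genes in pathway order, with lines for the 95% interval from 3 libraries per group. The 13 genes called lower (blue) lie in the upper 4 blocks, which hold the enzymes of synthesis; GGPS1 and NPC1 (red) are called higher.

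**Figure D2:**
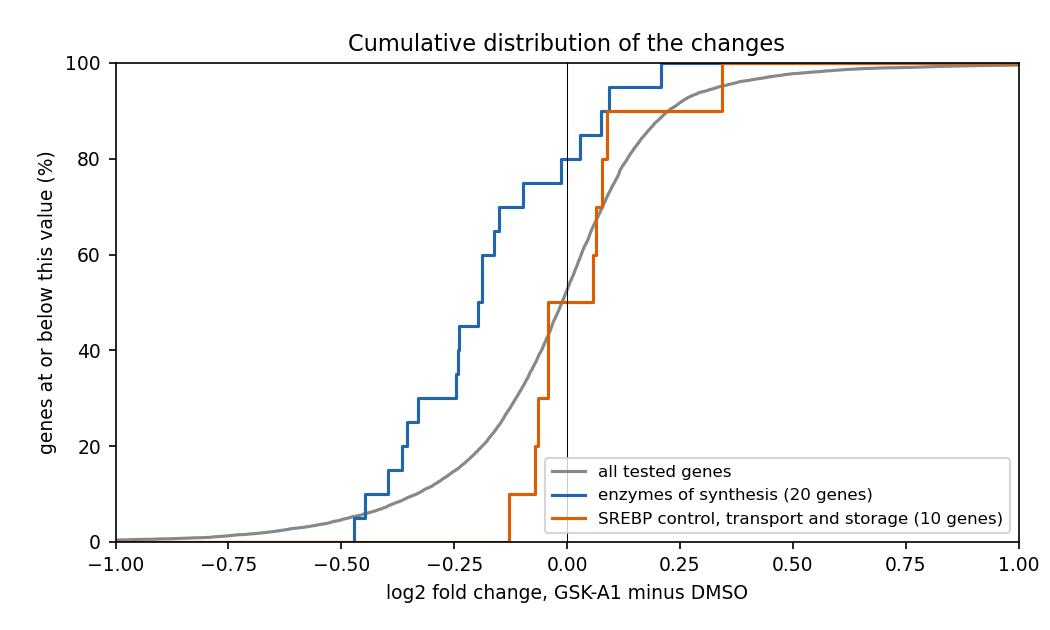
Share of genes (%, vertical axis) at or below each log2 fold change (horizontal axis), for all 16754 tested genes (grey), the 20 enzymes of synthesis (blue) and the 10 genes of SREBP control, transport and storage (orange). The blue line crosses the middle of the scale near its median of -0.19, and the grey line near -0.011; the axis ends at -1 and 1.

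The 6 libraries held 33040178 to 47777233 counts, of which the 30 cholesterol genes took 0.460% to 0.472% with DMSO and 0.416% to 0.445% with GSK-A1. GSK-A1 replicate 2 stood apart from the others of its group, with Pearson correlations of log2 CPM across genes of 0.995 and 0.994 to its replicates 1 and 3, while those 2 correlated at 0.997. Among the cholesterol genes it was the highest of the 3 GSK-A1 libraries in 14 and the lowest in 11. The median GC content of the longest transcript was 40.1% in those 14 genes and 57.1% in those 11. It was also 56.0% in the 13 genes called lower and 41.1% in the 15 not called, beside 48.3% over all tested genes with a value. Once each library's GC trend was removed, 15 cholesterol genes were called lower and 2 higher. Without GSK-A1 replicate 2, 17 were called lower and 2 higher. Calls over all genes also rose, from 3835 to 4356 with the GC trend removed and to 4890 without that library.

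**Figure D3:**
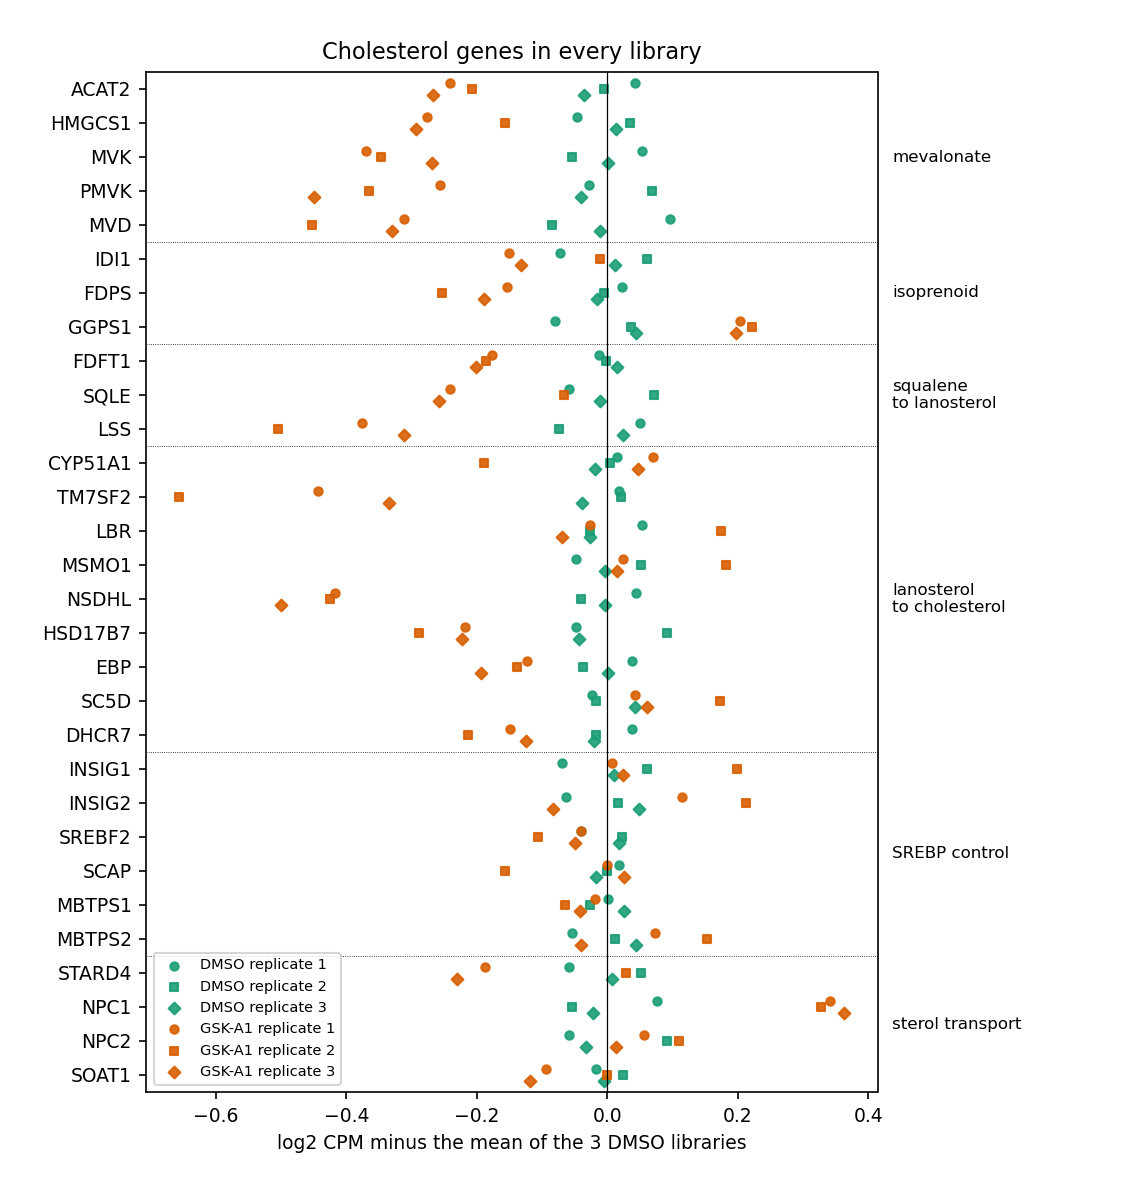
Log2 CPM of each cholesterol gene in each library minus the mean of the 3 DMSO libraries (horizontal axis), with DMSO in green, GSK-A1 in orange and replicates 1, 2 and 3 as circles, squares and diamonds. In the 5 mevalonate genes the groups are apart; in the 6 genes of SREBP control they overlap, and the orange squares of replicate 2 often lie at an end of their group.

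Because SREBP2 acts with the factors NF-Y and SP1 at many promoters of this route, the 250 bases before the start of each gene were searched on both strands for 4 motifs. A gene with several annotated starts, such as IDI1 with matches in 3 windows, was counted when any of its windows held the motif, and the share over all genes was counted in the same way. That share covers every gene with a window, whether or not it passed the count filter. The cholesterol genes all passed it, so the sets are unlike. RefSeq (GRCh38.p14) windows were at hand for 27 of the 30 genes, of which 10 were called lower and 15 were not called. The NF-Y box CCAAT was in 19 of the 27, in 9 of the 10 called lower and in 9 of the 15 not called, beside 37.0% of 27305 genes with a window. The GC box GGGCGG was in 23 of the 27, in 9 of the 10 and in 12 of the 15, beside 46.2% of all genes. The E box CACGTG was in SC5D, INSIG1 and SCAP only, 3 of the 27, beside 7.73% of all genes. A match to the sterol response element TCACNCCAC was in 1 of the 27, the promoter of SREBF2 itself, beside 1.09% of all genes. The promoters of the 4 called genes with the smallest p-values that had a window are shown with those of INSIG1 and SREBF2, so that the genes that moved can be read beside 2 of the control genes that were not called. Each runs 5′ to 3′ on the strand of its gene and ends at the last base before the start, with matches to these motifs on either strand in capitals, together with the shorter form CACNCCAC of the sterol response element, which was chosen after the data were seen and is contained in the longer form.
NSDHL, chrX:152830813-152831062, plus strand: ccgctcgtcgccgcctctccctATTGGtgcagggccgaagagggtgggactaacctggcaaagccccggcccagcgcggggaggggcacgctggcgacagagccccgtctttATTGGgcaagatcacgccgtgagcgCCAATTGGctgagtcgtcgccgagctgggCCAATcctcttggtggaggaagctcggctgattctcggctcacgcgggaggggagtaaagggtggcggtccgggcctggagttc
LSS, chr21:46228775-46229024, minus strand: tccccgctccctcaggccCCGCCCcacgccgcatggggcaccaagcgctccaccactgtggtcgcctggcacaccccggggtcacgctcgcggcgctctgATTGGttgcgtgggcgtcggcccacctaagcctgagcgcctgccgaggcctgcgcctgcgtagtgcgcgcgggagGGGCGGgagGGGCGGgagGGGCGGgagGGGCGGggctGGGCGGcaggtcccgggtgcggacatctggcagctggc
TM7SF2, chr11:65111622-65111871, plus strand: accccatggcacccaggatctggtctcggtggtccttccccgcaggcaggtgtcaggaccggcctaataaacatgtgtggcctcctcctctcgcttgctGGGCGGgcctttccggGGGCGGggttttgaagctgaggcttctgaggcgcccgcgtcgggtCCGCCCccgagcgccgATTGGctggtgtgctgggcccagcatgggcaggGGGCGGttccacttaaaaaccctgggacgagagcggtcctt
NPC1, chr18:23586507-23586756, minus strand: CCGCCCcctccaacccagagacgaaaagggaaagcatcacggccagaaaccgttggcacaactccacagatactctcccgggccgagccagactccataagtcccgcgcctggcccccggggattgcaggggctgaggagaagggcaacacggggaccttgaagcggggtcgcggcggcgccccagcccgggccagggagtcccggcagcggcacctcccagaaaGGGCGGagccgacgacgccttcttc
INSIG1, chr7:155297628-155297877, plus strand: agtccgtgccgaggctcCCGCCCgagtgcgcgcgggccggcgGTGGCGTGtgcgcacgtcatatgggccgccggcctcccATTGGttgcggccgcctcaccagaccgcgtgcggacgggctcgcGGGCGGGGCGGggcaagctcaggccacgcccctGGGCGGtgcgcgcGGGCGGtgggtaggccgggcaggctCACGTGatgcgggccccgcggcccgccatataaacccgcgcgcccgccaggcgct
SREBF2, chr22:41832855-41833104, plus strand: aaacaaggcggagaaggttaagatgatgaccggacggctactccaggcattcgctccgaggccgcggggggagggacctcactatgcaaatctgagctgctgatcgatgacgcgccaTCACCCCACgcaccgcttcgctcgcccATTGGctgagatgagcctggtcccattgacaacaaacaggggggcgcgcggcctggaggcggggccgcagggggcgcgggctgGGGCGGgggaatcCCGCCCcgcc
The NSDHL window holds CCAAT boxes and no GC box, LSS a run of GC boxes with 1 CCAAT box on the opposite strand, TM7SF2 both kinds, and NPC1 GC boxes only. These are matches of letters and not measured binding sites.

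The mevalonate genes were lower as a block. All 5 genes fell by 15.3% to 22.4%, and in each the groups did not overlap. Over all genes tested, 10.9% were called lower, and in 20.4% the GSK-A1 libraries all lay below the DMSO libraries. ACAT2 (ENSG00000120437), the cytosolic thiolase that joins acetyl-CoA units, had 149, 144 and 141 CPM in the DMSO libraries, in the order of their replicate numbers, against 122, 125 and 120 CPM in the GSK-A1 libraries. The fitted log2 fold change was -0.24 ± 0.038 (SE, n = 3 per group; adjusted p = 3.45e-04 by edgeR). HMGCS1 (ENSG00000112972), the cytosolic HMG-CoA synthase, stood at 407, 431 and 424 CPM with DMSO and 347, 377 and 343 CPM with GSK-A1. Replicate 2 was the highest of the GSK-A1 libraries and still lay under every DMSO library, and the log2 fold change was -0.24 ± 0.040 (adjusted p = 4.91e-04 by edgeR).

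The kinases and the decarboxylase that follow had lower CPM, and their fitted changes ran from -0.37 to -0.33 on the log2 scale. MVK (ENSG00000110921), mevalonate kinase, stood at 26.4, 24.4 and 25.4 CPM with DMSO and 19.6, 19.96 and 21.1 CPM with GSK-A1, which gave a log2 fold change of -0.33 ± 0.055 (adjusted p = 5.32e-04 by edgeR). PMVK (ENSG00000163344), phosphomevalonate kinase, stood at 19.99, 21.4 and 19.8 CPM with DMSO and 17.1, 15.8 and 14.9 CPM with GSK-A1, which gave a log2 fold change of -0.35 ± 0.063 (adjusted p = 9.10e-04 by edgeR). MVD (ENSG00000167508), which decarboxylates mevalonate pyrophosphate to isopentenyl pyrophosphate, stood at 35.8, 31.6 and 33.2 CPM with DMSO and 26.9, 24.4 and 26.6 CPM with GSK-A1, which gave a log2 fold change of -0.37 ± 0.058 (adjusted p = 3.62e-04 by edgeR). The 95% intervals of all 5 genes overlapped, so no order among them is given. All 5 kept their call in the 15 alternative fits, with adjusted p at most 0.0135. With the GC trend removed, MVK, PMVK and MVD were at -0.25, -0.27 and -0.26, ACAT2 at -0.20 and HMGCS1 at -0.26. By GENCODE 29, SOD2-OT1 runs against ACAT2 over 33.9% of its exon bases and AC114947.2 runs against HMGCS1 over 14.95%. The library kit kept strand, but the strand setting of the counting is not given in the sources used here, so these counts could include antisense reads.

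At the isoprenoid branch the genes did not move together. IDI1, the isomerase that makes dimethylallyl pyrophosphate, stood at 298, 328 and 317 CPM with DMSO and 283, 312 and 287 CPM with GSK-A1. Replicate 2 of GSK-A1 lay among the DMSO libraries and replicates 1 and 3 below them. The log2 fold change of -0.098 ± 0.043 (95% interval -0.19 to -0.0056) did not pass (adjusted p = 0.117 by edgeR). IDI1 was called without GSK-A1 replicate 2 (-0.14, adjusted p = 3.50e-04 by edgeR), and with all 6 libraries it was called by upper-quartile factors (-0.14, 0.0252), after removal of the GC trend (-0.11, 0.0238) and with a replicate block (-0.098, 0.0458). FDPS (ENSG00000160752), which makes farnesyl pyrophosphate, the last intermediate shared by sterols and prenylated proteins, fell from 276 ± 3.9 to 241 ± 8.4 CPM (SD, n = 3). Its libraries stood at 281, 275 and 273 CPM with DMSO and 248, 232 and 242 CPM with GSK-A1, which gave a log2 fold change of -0.20 ± 0.036 (adjusted p = 0.00105 by edgeR). After removal of the GC trend FDPS was at -0.13 and was still called. RUSC1-AS1 runs antisense over 18.6% of its exon bases.

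GGPS1 (ENSG00000152904) was the only enzyme of the 20 that rose. It draws farnesyl pyrophosphate off the sterol route to make geranylgeranyl pyrophosphate, the lipid attached to many small GTPases. Its libraries stood at 18.5, 20.1 and 20.2 CPM with DMSO and at 22.5, 22.8 and 22.4 CPM with GSK-A1, without overlap. The log2 fold change was 0.21 ± 0.056 (adjusted p = 0.0128 by edgeR), and without DMSO replicate 1, the lowest library, it was 0.17 and did not pass (adjusted p = 0.0829 by edgeR). An overlapping gene on the same strand, annotated as TBCE, covered 37.3% of the exonic length of GGPS1 and was itself called higher, from 4.93 to 6.20 CPM (log2 fold change 0.31, adjusted p = 0.0242 by edgeR). The value of GGPS1 is therefore uncertain, since reads could be split between these genes.

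All 3 genes from farnesyl pyrophosphate to lanosterol fell, beside 10.9% called lower over all genes tested. FDFT1 (ENSG00000079459), squalene synthase, the first step committed to sterols, stood at 402, 405 and 409.5 CPM with DMSO and 359, 356 and 353 CPM with GSK-A1. The spread within each group was under 4 CPM by SD (405 ± 3.8 and 356 ± 2.9 CPM, n = 3), and the log2 fold change was -0.19 ± 0.032 (adjusted p = 6.16e-04 by edgeR). SQLE (ENSG00000104549), squalene epoxidase, which inserts oxygen into squalene and is a rate-limiting step, had the highest CPM of the 30 genes. It stood at 856, 937 and 885 CPM with DMSO and 754, 852 and 746 CPM with GSK-A1, so that GSK-A1 replicate 2 lay just under DMSO replicate 1. Its log2 fold change was -0.19 ± 0.050 (adjusted p = 0.0173 by edgeR), and the call was lost without DMSO replicate 2 (-0.15, adjusted p = 0.0807 by edgeR), DMSO replicate 3 (-0.19, 0.0515) or GSK-A1 replicate 1 (-0.15, 0.0868). LSS, which folds the epoxide into lanosterol, had the lowest fitted change of the 3. Its libraries stood at 141, 129 and 138 CPM with DMSO and 105, 95.8 and 109 CPM with GSK-A1, and the gene fell by 23.98% (log2 fold change -0.40 ± 0.049; adjusted p = 5.13e-05 by edgeR). The 95% interval of LSS, -0.50 to -0.2915, ended below that of FDFT1, -0.26 to -0.12, but overlapped that of SQLE, -0.295 to -0.080. The differences between these genes were not tested. After removal of the GC trend the values were -0.32 for LSS and -0.17 for both FDFT1 and SQLE.

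From lanosterol to cholesterol 4 of 9 genes fell and 5 did not pass, beside 10.9% called lower over all genes tested. NSDHL (ENSG00000147383), a dehydrogenase that helps remove the C4 methyl groups, had the smallest p-value of the 30 genes. Its libraries stood at 59.5, 56.1 and 57.6 CPM with DMSO and 43.2, 43.00 and 40.8 CPM with GSK-A1, and the gene fell by 26.7% (log2 fold change -0.45 ± 0.045; adjusted p = 4.75e-06 by edgeR). TM7SF2 (ENSG00000149809), a sterol C14 reductase, had the lowest fold change of the 30 genes. It stood at 16.5, 16.5 and 15.8 CPM with DMSO and 11.9, 10.3 and 12.9 CPM with GSK-A1, replicate 2 being the lowest, which gave a log2 fold change of -0.47 ± 0.074 (adjusted p = 3.17e-04 by edgeR). After removal of the GC trend TM7SF2 was at -0.37, and NSDHL, at -0.41, was the lowest of the 30. DHCR7 (ENSG00000172893), which reduces 7-dehydrocholesterol to cholesterol, stood at 147, 141 and 141 CPM with DMSO and 129, 123 and 131 CPM with GSK-A1. Its log2 fold change was -0.16 ± 0.038 (adjusted p = 0.00636 by edgeR), but it moved to -0.081 and was not called once the GC trend was removed (adjusted p = 0.0819 by edgeR), nor without DMSO replicate 1 (-0.14, 0.0514).

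HSD17B7 (ENSG00000132196), the keto-sterol reductase that acts after NSDHL, was a low gene that fell from 10.9 ± 0.61 to 9.19 ± 0.25 CPM (SD, n = 3). Its log2 fold change was -0.25 ± 0.072 (adjusted p = 0.0209 by edgeR), and it was not called by DESeq2 (adjusted p = 0.0773), nor without DMSO replicate 2 (adjusted p = 0.116 by edgeR) or GSK-A1 replicate 1 (0.0591). The pseudogene HSD17B7P2 shares 17.0% of the 50-base stretches found in its transcript, so reads of that copy may be in its count. EBP, the sterol isomerase that moves the double bond of the B ring, stood at 23.8, 22.6 and 23.2 CPM with DMSO and 21.3, 21.1 and 20.3 CPM with GSK-A1. The groups did not overlap, yet the log2 fold change of -0.15 ± 0.053 (95% interval -0.26 to -0.039) lay just short of the call (adjusted p = 0.0501 by edgeR). EBP was called when GSK-A1 replicate 2 was left out (adjusted p = 0.0257 by edgeR), by upper-quartile factors (0.0147), by library totals (0.0430) and with the filter at 1 CPM (0.0349). With the GC trend removed its log2 fold change was -0.10 (adjusted p = 0.162 by edgeR).

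The other 4 genes of this stretch had overlapping groups. MSMO1, the C4 methyl oxidase that works with NSDHL and HSD17B7, stood at 96.98, 104 and 100 CPM with DMSO and 102, 114 and 101 CPM with GSK-A1. Its log2 fold change of 0.074 ± 0.047 (95% interval -0.025 to 0.17; adjusted p = 0.276 by edgeR) did not pass, and it was 0.024 when GSK-A1 replicate 2 was left out and 0.023 after removal of the GC trend. SC5D, the C5 desaturase, stood at 144, 145 and 151 CPM with DMSO and 151, 165 and 153 CPM with GSK-A1. Its log2 fold change was 0.093 ± 0.041 (95% interval 0.0055 to 0.18, adjusted p = 0.117 by edgeR). LBR, a nuclear envelope protein with C14 reductase activity, stood at 310.5, 294 and 294 CPM with DMSO and 294, 338 and 285 CPM with GSK-A1. Replicate 2 was the highest library of all 6, and the log2 fold change of 0.029 ± 0.055 turned to -0.044 without it, to -0.028 with the GC trend removed and to -0.012 under upper-quartile factors. CYP51A1, the C14 demethylase, stood at only 5.71 ± 0.069 CPM with DMSO and 5.64 ± 0.55 CPM with GSK-A1. In GENCODE 29 AC000120.2 on the same strand covered 79.4% of its exonic length, and that gene had a mean of 0 CPM with DMSO and 0.00715 with GSK-A1. How the counting treated reads that fit both genes is not given in the sources used here, so the CYP51A1 count and its log2 fold change of -0.013 ± 0.096 are uncertain.

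TM7SF2 and LBR catalyse the same reduction, so their counts were compared within each library, which needs no scaling. The log2 ratio of TM7SF2 to LBR was -4.24, -4.15 and -4.21 in DMSO replicates 1 to 3 and -4.62, -5.03 and -4.47 in GSK-A1 replicates 1 to 3. It was lower in all 3 GSK-A1 libraries, with a difference of -0.51 (exact two-sided permutation p = 0.1, the smallest that 3 against 3 libraries allow). LBR had the higher count throughout. Replicate 2 held the lowest ratio, and the difference without it was -0.34. The GC content of the longest transcript was 64.2% for TM7SF2 and 37.8% for LBR, and its part in the difference was not tested.

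**Figure D4:**
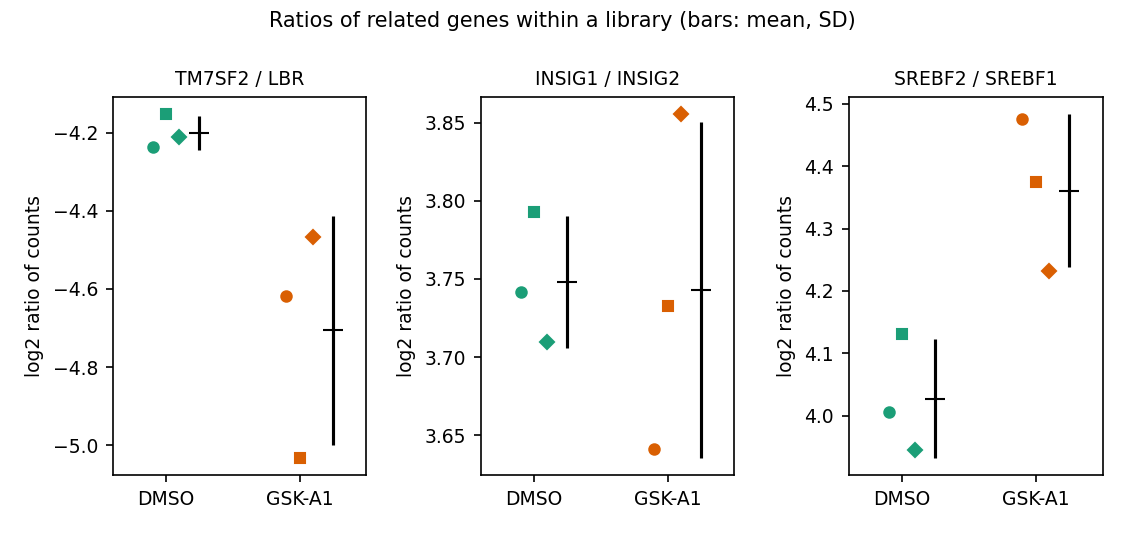
Log2 ratio of raw counts (vertical axes) of 3 gene pairs within each library, DMSO in green and GSK-A1 in orange, replicates as circles, squares and diamonds, with the mean and SD (n = 3) as bars. The groups are apart for TM7SF2 to LBR and SREBF2 to SREBF1 and overlap for INSIG1 to INSIG2; the vertical axes differ and do not start at 0.

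None of the 6 genes that control SREBP2 passed the test, and their groups overlapped in every case. By unadjusted edgeR p under 0.05 the count was also 0, and DESeq2 and limma-voom called 0. Over all 16754 genes tested, 22.9% were called, and 6001 had an unadjusted edgeR p under 0.05. With only 6 genes, whether their share of calls differs from that of all genes was not tested. INSIG1, the sterol-sensing anchor that is itself a target of SREBP2, stood at 249.9, 274 and 264 CPM with DMSO and 264, 301 and 267 CPM with GSK-A1. Replicate 2 was the highest of the 6 libraries, and the log2 fold change was 0.077 ± 0.050 (95% interval -0.030 to 0.18; adjusted p = 0.289 by edgeR). When that library was left out the value was 0.019. INSIG2, its paralog, stood at 18.7, 19.7 and 20.2 CPM with DMSO and 21.1, 22.6 and 18.4 CPM with GSK-A1, which gave a log2 fold change of 0.088 ± 0.069 (95% interval -0.058 to 0.23). The log2 ratio of INSIG1 to INSIG2 averaged 3.75 ± 0.042 (SD, n = 3) in DMSO libraries against 3.74 ± 0.11 in GSK-A1 libraries, and these differed by -0.0049 (exact two-sided permutation p = 0.9).

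SREBF2, the gene of SREBP2, stood at 327, 342 and 341 CPM with DMSO and 328, 313 and 325 CPM with GSK-A1. Its log2 fold change was -0.065 ± 0.035 (95% interval -0.14 to 0.0089; adjusted p = 0.195 by edgeR). The value was -0.11 and called under upper-quartile factors (adjusted p = 0.0408 by edgeR) and turned to 0.010 with the GC trend removed. SCAP, the escort protein, had a log2 fold change of -0.041 ± 0.046 that turned to 0.016 without GSK-A1 replicate 2 and to 0.058 with the GC trend removed. The proteases MBTPS1 and MBTPS2 had values of -0.042 ± 0.036 and 0.065 ± 0.049, and that of MBTPS2 turned to -0.0034 with the GC trend removed. The intervals of all 6 genes lay between -0.14 and 0.23, so changes as large as the fall of LSS, NSDHL or TM7SF2 were outside them. SREBF1, the related gene that favours fatty acid synthesis, fell from 20.7 ± 1.3 to 15.7 ± 1.4 CPM (fitted change -0.40 ± 0.070 in log2 units; adjusted p = 8.63e-04 by edgeR). The log2 ratio of SREBF2 to SREBF1 was 4.01, 4.13 and 3.94 with DMSO and 4.48, 4.37 and 4.23 with GSK-A1, higher in all 3 libraries by 0.33 (exact two-sided permutation p = 0.1).

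Of the 4 genes of sterol transport and storage, 1 rose and 3 did not pass, beside 22.9% called in either direction over all genes tested. NPC1 (ENSG00000141458), the membrane protein that exports cholesterol from late endosomes and lysosomes, had the largest rise of the 30 genes. Its DMSO libraries had 54.5, 49.7 and 50.9 CPM, against 65.5, 64.8 and 66.5 CPM in those given GSK-A1. All 3 GSK-A1 libraries lay above all 3 DMSO libraries, and the log2 fold change was 0.34 ± 0.045 (SE; adjusted p = 6.47e-05 by edgeR), a rise of 26.8% called in all 15 alternative fits. NPC2, its soluble partner in the lysosome, stood at 25.6, 28.5 and 26.1 CPM with DMSO and 27.8, 28.8 and 26.9 CPM with GSK-A1, where the groups overlapped, and had a log2 fold change of 0.058 ± 0.055 (95% interval -0.059 to 0.17; adjusted p = 0.487 by edgeR). The interval of NPC2 ended below that of NPC1, which was 0.25 to 0.44.

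STARD4, a cytosolic sterol carrier, stood at 68.4, 73.8 and 71.6 CPM with DMSO and 62.5, 72.6 and 60.7 CPM with GSK-A1. Replicates 1 and 3 of GSK-A1 lay below the DMSO libraries and replicate 2 among them. The log2 fold change of -0.13 ± 0.059 (95% interval -0.255 to -0.001) did not pass (adjusted p = 0.137 by edgeR). STARD4 was called at -0.20 both when GSK-A1 replicate 2 was left out (adjusted p = 1.43e-05 by edgeR) and after removal of the GC trend (0.00167), and also by upper-quartile factors (0.0452) and with a replicate block (0.0466). SOAT1, which esterifies cholesterol for storage, stood at 72.2, 74.2 and 72.8 CPM with DMSO and 68.4, 73.03 and 67.3 CPM with GSK-A1. It followed the same pattern across libraries, with a log2 fold change of -0.071 ± 0.043 that was not called (adjusted p = 0.248 by edgeR) but was called at -0.10 without GSK-A1 replicate 2 (adjusted p = 0.0217 by edgeR) and at -0.096 after removal of the GC trend (0.0441).

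Levels of different genes were compared per kb of exon, using the merged exon length of GENCODE 29. This length can exceed that of the longest transcript, with 5202 against 2660 bases for FDFT1 and 4702 against 3506 for HMGCS1. The order of genes with close values therefore depends on the length used. With DMSO, SQLE stood highest at 207 ± 9.5 CPM per kb (SD, n = 3), above HMGCS1 at 89.5 ± 2.6. FDFT1, FDPS, IDI1 and INSIG1 followed at 77.9 ± 0.73, 74.3 ± 1.0, 72.3 ± 3.4 and 71.9 ± 3.3 CPM per kb. By the merged length the last 3 did not differ beyond their spread. Of the later mevalonate enzymes, MVK stood at 3.92, MVD at 7.11 and PMVK at 15.9 CPM per kb. TM7SF2 at 4.77 CPM per kb stood far under LBR at 56.9, and INSIG2 at 4.94 under INSIG1. CYP51A1 and HSD17B7 were lowest, at 1.60 and 2.28 CPM per kb, both with the uncertain counts given above. The falls thus included the gene with the highest level per kb, SQLE, and genes at the low end such as TM7SF2.

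**Figure D5:**
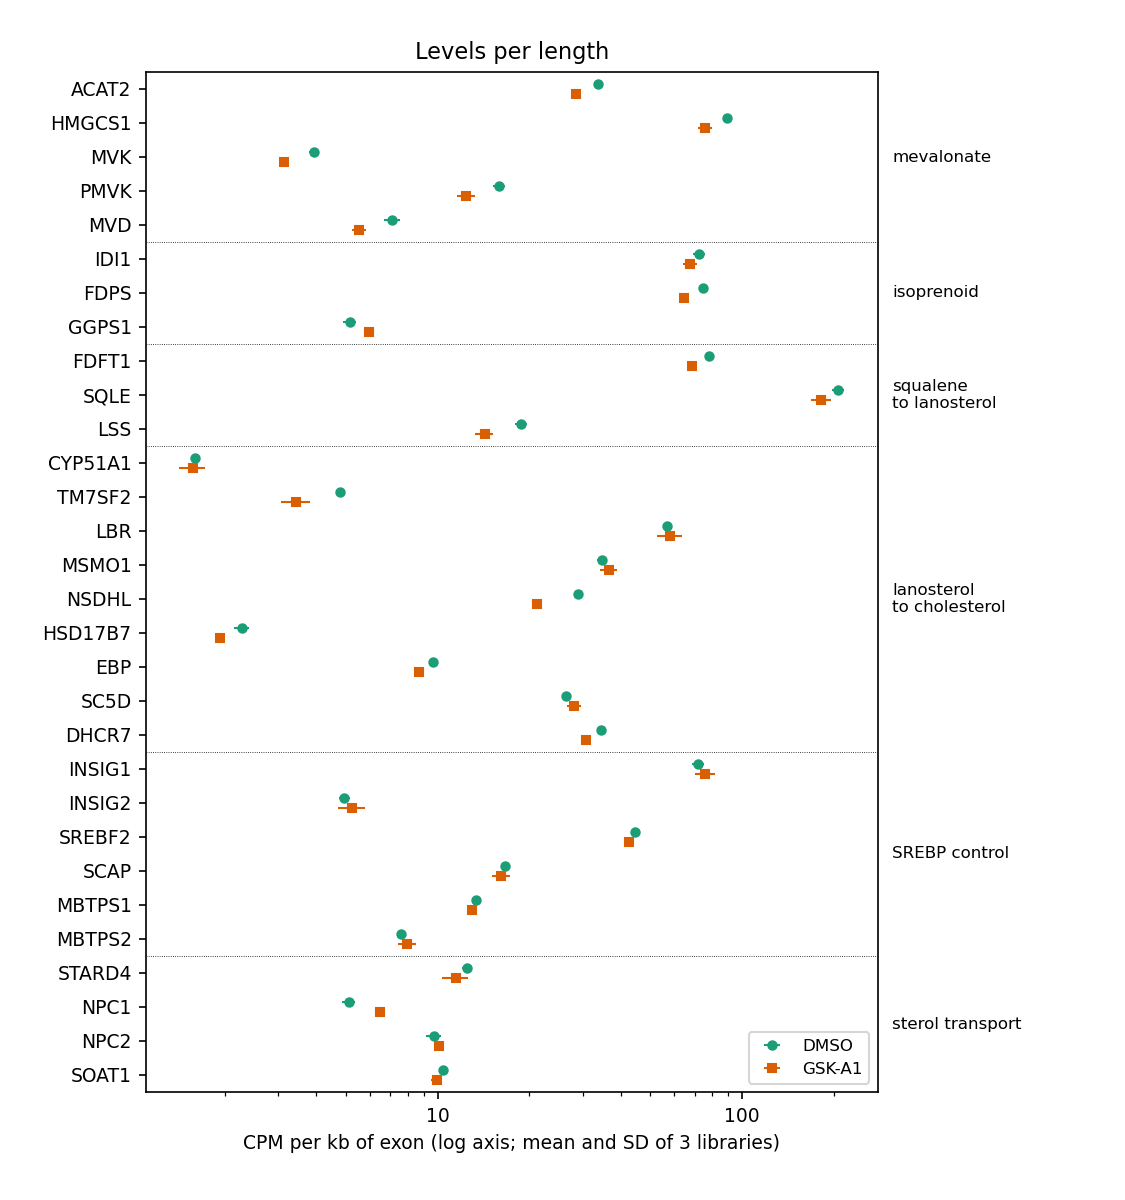
Level of each cholesterol gene in CPM per kb of exon (horizontal log axis), as mean and SD of 3 libraries, DMSO as green circles and GSK-A1 as orange squares. SQLE lies to the far right at 207 with DMSO and CYP51A1 to the far left at 1.60.

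Among 12 other regulators of SREBP and of the degradation of sterol enzymes, 2 fell and 4 rose, beside 10.9% called lower and 12% called higher over all genes tested. The smallest p-values belonged to PAQR3, SREBF1 and ERLIN1. PAQR3 (ENSG00000163291), a Golgi protein known to bind SCAP and SREBP, stood at 55.2, 56.00 and 57.03 CPM with DMSO and 74.8, 83.4 and 73.7 CPM with GSK-A1. It was thus higher in all 3 libraries, with a log2 fold change of 0.46 ± 0.048 (adjusted p = 7.90e-06 by edgeR). ERLIN1, part of a complex that restrains SREBP in the endoplasmic reticulum, rose by 0.17 ± 0.043 on the log2 scale (adjusted p = 0.00942 by edgeR). The ubiquitin ligase RNF139 rose by 0.16 on the log2 scale, while ERLIN2, the partner of ERLIN1, changed by -0.13 and was called lower. The median log2 fold change of the 12 was 0.065, beside -0.011 over all genes tested. Over all 5 added lists there were 16 calls, but 8 when DMSO replicate 1 was left out and 9 when DMSO replicate 3 was. Calls over all genes fell from 3835 to 2163 and 2206 in the same fits.

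Of 15 other genes of sterol uptake, transport and ester turnover, 13 were tested, 2 fell and 3 rose, so that 5 of 13 were called beside 22.9% of all genes tested. TMEM97 (ENSG00000109084), the sigma-2 receptor, which binds NPC1, fell from 153 ± 8.3 to 121 ± 3.3 CPM (fitted change -0.34 ± 0.043 in log2 units; adjusted p = 4.73e-05 by edgeR). LRP8, a lipoprotein receptor, rose from 76.2 ± 2.8 to 90.6 ± 2.8 CPM (fitted change 0.25 ± 0.042 in log2 units; adjusted p = 5.80e-04 by edgeR). SCARB1, which takes up cholesterol from high-density lipoprotein, fell by 9.97% (adjusted p = 0.0158 by edgeR). LIPA, the lysosomal acid lipase that frees cholesterol from its esters, stood at 79.1 ± 1.8 CPM and 79.2 ± 5.1 CPM, which gave a log2 fold change of 0.0012 (95% interval -0.094 to 0.096). Of 5 genes that supply electrons to or hold together the sterol enzymes, 1 was called, beside 22.9% of all genes tested. The electron donors did not pass: POR, CYB5A, CYB5B and CYB5R3 lay between -0.080 and 0.043 on the log2 scale. ERG28, a scaffold of the C4 demethylation enzymes, fell from 29.99 ± 0.33 to 26.1 ± 0.046 CPM (fitted change -0.20 ± 0.048 in log2 units; adjusted p = 0.00719 by edgeR).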

How the data were processed

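RNA from 6 HEK293 cultures was sequenced. Per the labels' protocols, stranded libraries were pooled for Illumina sequencing, and all carry 1 batch label. The authors deposited raw counts per gene. The submitters' processing notes name cutadapt 5.1, STAR 2.7.11b, featureCounts, Subread 2.1.1, DESeq2 1.38.0 and GRCh38.p13, while the annotation release and strand setting are not given in the sources used here. Totals were 33040178 to 47777233 counts.

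From these counts, edgeR 4.0.16 (R 4.3.3; filterByExpr with a smallest count of 10 and total of 15, TMM factors, robust quasi-likelihood test, legacy option off) was fitted to 16754 genes with 3 libraries per group. P-values were adjusted by Benjamini-Hochberg and called under 0.05. A standard error is the unshrunken log2 coefficient over the square root of F. CPM use TMM-adjusted library totals. Ratios within a library had 0.5 added to each count. GENCODE 29 gave lengths, GC content, overlaps and shared 50-base stretches. P-values measure the spread between these libraries.

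The genes, their groups and the lists were chosen with earlier results of these data known. All 30 listed genes are named, with up to 3 called genes of smallest p in other lists. RNF139, ERLIN2, LIPA and the uncalled genes given as a range were named after their values were seen. Alternatives were other factors, filters, DESeq2 1.42.0, limma-voom (limma 3.58.1), a replicate block, GC-trend removal (loess, span 0.3) and leaving out each library. The fit was tested on simulated counts, where more of the calls were false than the threshold allows and smaller changes were recovered less often than larger ones. Recovery was not measured for changes as small as those reported here.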

Additional observations from a re-analysis of the deposited data

How the results depend on the processing

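Of the 30 cholesterol genes, 17 kept their direction and their call in all 15 alternative fits, 10 of them called lower, 1 called higher and 6 not called. The sign changed in 5 uncalled genes. Upper-quartile factors gave LBR -0.012. Removal of the GC trend gave LBR -0.028, SREBF2 0.010, SCAP 0.058 and MBTPS2 -0.0034. With 1 library left out, the values ranged from -0.059 to 0.063 for CYP51A1, -0.044 to 0.080 for LBR, -0.072 to 0.016 for SCAP and -0.061 to 0.046 for the log2 ratio of INSIG1 to INSIG2. Small values in uncalled genes moved by more than 1.5 times over the 15 alternatives, from 0.020 to 0.17 for INSIG2, 0.017 to 0.11 for NPC2, 0.047 to 0.13 for SC5D and -0.083 to -0.0013 for MBTPS1. The count of genes called lower stayed between 11 and 17. The count called higher was 1 without DMSO replicate 1, as was the count of isoprenoid genes called. Under upper-quartile factors 1 gene of SREBP control and 2 of transport were called, and 3 of transport were called with the GC trend removed or without GSK-A1 replicate 2. The median over the 30 genes was -0.11, against -0.15 by upper-quartile factors, -0.12 by library totals, -0.10 with no count filter, -0.12 at 1 CPM or more in 3 libraries, -0.10 by DESeq2 and -0.098 with the GC trend removed. With 1 library left out it ranged from -0.14 to -0.077. Calls over all genes ranged from 2163 to 4890 with 1 library left out, beside 3835, and those over the added lists from 8 to 20, beside 16. Of all calls 52.3% were higher, against 33.3% by upper-quartile factors, 62.5% by DESeq2 and 64.0% after removal of the GC trend. The deviations of same-numbered libraries from their group means correlated at 0.011, 0.019 and 0.032, and those of differently numbered libraries at -0.033 to 0.012. Of the 6 libraries, 5 correlated best with their own number, and GSK-A1 replicate 1 missed it at 0.011 against 0.012. Correlations this weak cannot tell whether the replicate numbers pair the libraries. With the replicate block 0 calls among the 30 genes were lost and 2 gained (IDI1 and STARD4), 2 genes of transport were called, and 4127 genes were called in all. Where a setting changed a value, the cause was not tested. Counting error and 3 libraries per group limit the low genes most.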

Other observations

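Fatty acid synthesis shares acetyl-CoA and the SREBP factors with the cholesterol route, and 3 of 8 genes of a list for that arm fell, 0 rose and 5 did not pass, beside 10.9% called lower and 12% called higher over all genes tested. The genes that fell were ACLY, which supplies cytosolic acetyl-CoA, FASN, the fatty acid synthase, and SCD, the stearoyl-CoA desaturase. ACLY stood at 771, 759 and 765 CPM with DMSO and 700.4, 706 and 685 CPM with GSK-A1, which gave a log2 fold change of -0.13 ± 0.031 (adjusted p = 0.00505 by edgeR). Its groups did not overlap. FASN stood at 2026, 2003 and 2042 CPM with DMSO and 1758, 1662 and 1770 CPM with GSK-A1 (log2 fold change -0.23 ± 0.031), and SCD at 1025, 1036 and 1051 CPM and 819, 840.3 and 810.5 CPM (fitted change -0.33 ± 0.031 in log2 units). ACACA, ELOVL6, FADS1, FADS2 and LPIN1 lay between -0.066 and 0.11 on the log2 scale. The median of the 8 was -0.059.

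Of 10 genes that use the isoprenoids made upstream of sterols, 1 rose and 9 did not pass, beside 22.9% called in either direction over all genes tested. FNTA, the subunit shared by the enzymes that attach farnesyl and geranylgeranyl groups to proteins, rose from 34.9 ± 0.34 to 38.9 ± 2.9 CPM (fitted change 0.16 ± 0.053 in log2 units; adjusted p = 0.0448 by edgeR). Genes of ubiquinone and dolichol synthesis (PDSS1, PDSS2, COQ2, DHDDS and NUS1) lay between -0.11 and 0.096. The median of the 10 was 0.0033.

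The shorter sterol response element CACNCCAC, chosen after the data were seen, was in 4 of the 27 cholesterol genes with a window, IDI1, SC5D, INSIG1 and SREBF2, beside 5.89% of all genes. In IDI1 it was in 1 of 3 windows. It was in 0 of the 10 called lower and in 4 of the 15 not called.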
